A study of Mus musculus with 9 samples.

Results

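The genes described here encode the proteins that mouse neutrophils load into their late-forming granules, the 2 subunits of calprotectin, and an enzyme that acts on neutrophil chromatin. They were followed in AML246, a mouse acute myeloid leukaemia line that can be driven out of a PU.1-depleted state. The genes are Ltf, Camp, Ngp, Lcn2, Olfm4, S100a8, S100a9, Pglyrp1, Padi4 and Chil3. They were taken as the count entries whose Entrez identifiers map to these symbols, which gave 10 of the 27179 entries in each file. AML246 is a C57BL/6 line that is p53-/- and carries shPU.1, a short hairpin RNA against PU.1, and it was grown in medium supplemented with IL3. All 9 libraries therefore come from p53-/- cells that carry the hairpin, and no library comes from cells without the leukaemia background. Clones 1, 2 and 4 were each grown from a single sorted cell, and each clone gave 1 library per condition, so that there are 9 libraries and 3 per group. Washed cells had 14 days of doxycycline, were washed, and spent a further 14 days without it, and they were sorted as GFPhigh. Doxycycline cells had 14 days of the drug and were sorted as GFPoff. Untreated cells had none and were sorted as GFPhigh. The labels give only the drug and the GFPhigh and GFPoff gates. That GFP marks cells making the hairpin, and that doxycycline cells can therefore make PU.1 again, is background knowledge of this system.

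Neutrophils fill their granules in sequence. Primary granules are made by promyelocytes, and secondary and tertiary granules by later precursors in which C/EBP-epsilon and PU.1 are active transcription factors. Secondary granules carry proteins that bind iron or siderophores and peptides that kill bacteria, while S100A8 and S100A9 lie in the cytosol and make up much of the soluble protein of a mature neutrophil. Because these genes come on late, their RNA is commonly read as a sign of granulocytic maturation.

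The members lie on 6 chromosomes in GRCm38, also called mm10, the build of the files. Camp (Entrez 12796, chr9:109847377-109849456), Ngp (18054, chr9:110419808-110423012) and Ltf (17002, chr9:111019292-111042766) share a stretch of chromosome 9, with 570351 bases between Camp and Ngp and 596279 between Ngp and Ltf. S100a8 (20201, chr3:90669071-90670034) and S100a9 (20202, chr3:90692630-90695721) are neighbours with 22595 bases between them, and Chil3 (12655, chr3:106147554-106167564) lies elsewhere on chromosome 3. Lcn2 (16819) is at chr2:32384637-32387739, Padi4 (18602) at chr4:140745508-140774239, Pglyrp1 (21946) at chr7:18884690-18890438 and Olfm4 (380924) at chr14:80000302-80023141. All 10 are protein-coding genes, and the values below are read counts per gene. None has an annotated gene on its opposite strand in GENCODE vM21.

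The upstream sequences of 5 members are shown because these members share stretches on chromosomes 9 and 3. Members on the same stretch had different values below. RefSeq (GRCm38.p6) gives a promoter for each of the 10 members. The 250 bases before the start were searched on both strands for GAGGAA, the core of PU.1 sites, and for TTGCNNAA, a C/EBP site, and capitals mark each match. Bases that GENCODE vM21 places in an exon of the same gene are left off the end. The stretches, each 5' to 3' on the gene's own strand, are chr9:111019042-111019270 (+) for Ltf, chr9:110419558-110419746 (+) for Ngp, chr9:109849618-109849706 (-) for Camp, chr3:90668821-90668977 (+) for S100a8 and chr3:90695722-90695971 (-) for S100a9.
Ltf: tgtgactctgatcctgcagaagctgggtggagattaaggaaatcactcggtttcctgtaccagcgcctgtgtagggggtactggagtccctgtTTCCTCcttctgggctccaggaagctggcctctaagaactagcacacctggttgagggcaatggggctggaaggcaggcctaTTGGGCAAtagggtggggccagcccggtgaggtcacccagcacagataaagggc
Ngp: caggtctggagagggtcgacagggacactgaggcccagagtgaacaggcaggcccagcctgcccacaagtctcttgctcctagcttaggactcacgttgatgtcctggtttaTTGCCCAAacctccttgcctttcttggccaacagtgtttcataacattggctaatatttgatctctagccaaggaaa
Camp: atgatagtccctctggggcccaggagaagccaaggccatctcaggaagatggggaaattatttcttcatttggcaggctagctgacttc
S100a8: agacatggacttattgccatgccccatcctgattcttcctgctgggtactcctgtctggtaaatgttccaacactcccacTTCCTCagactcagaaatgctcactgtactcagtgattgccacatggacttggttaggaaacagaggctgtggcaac
S100a9: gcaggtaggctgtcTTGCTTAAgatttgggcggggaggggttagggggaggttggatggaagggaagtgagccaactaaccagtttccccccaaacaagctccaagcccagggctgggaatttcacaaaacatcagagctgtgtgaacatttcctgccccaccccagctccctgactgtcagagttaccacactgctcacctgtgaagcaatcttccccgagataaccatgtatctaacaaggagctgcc

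Over the full 250 bases, GAGGAA was found upstream of 5 of the 10 members, Ltf, Lcn2, Olfm4, S100a8 and Pglyrp1, and in 23.3% of the 32851 promoters of the RefSeq table. TTGCNNAA was found upstream of 4 members, Ltf, Ngp, Lcn2 and S100a9, and in 9.56% of all promoters. Ltf and Lcn2 had both, as did 2.07% of all promoters, and no match of one overlapped a match of the other. S100a8 had 2 GAGGAA matches and no TTGCNNAA, whereas S100a9 had 1 TTGCNNAA and no GAGGAA. Ngp had 2 TTGCNNAA matches and Camp neither motif, as was also the case for Padi4 and Chil3. A match here is a run of letters, and binding was not measured.

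Library totals ran from 7408118 to 9803258 counts, and 12004 genes passed the filter on low counts, the 10 members among them. Spi1, the gene of PU.1, checked the labels. Its level was 52.0, 40.6 and 23.9 CPM (counts scaled to a common library size of 1e6) in washed clones 1, 2 and 4, 197, 191 and 156 CPM in doxycycline clones and 48.1, 46.6 and 23.7 CPM in untreated clones. One library stood apart. In untreated clone 1, 22.0% of counts lay on 1 entry with no symbol, against 0.153% to 1.64% in the other libraries, and results that turn on it are given without it as well. CPM here are scaled by TMM, a correction for libraries of unequal composition. Washed and untreated clone 4 were the most alike pair of libraries and still differed by more than sampling noise, so each library counts once. All 3 clones come from 1 line, and the p-values of the main fit measure the spread between these clones. In fits blocked by clone, which hold a term for clone, the p-values measure the spread left after that term.

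In doxycycline, 7 of the 10 members rose against untreated cells and 0 fell, at an adjusted p below 0.05 in edgeR's quasi-likelihood test with Benjamini-Hochberg adjustment over all 12004 genes. Across all tested genes 6.57% were called higher and 4.35% lower. The 7 were Lcn2, Ngp and Olfm4 among the granule proteins, both calprotectin genes, Pglyrp1 and Padi4. Ltf, Camp and Chil3 did not pass. The median log2 fold change of the members was 2.90, against 0.00 over all tested genes. Every doxycycline library was above every untreated library for 8 members, where 20.4% of tested genes separated in this way, and below for 1, where 18.5% did. As bulk measurements, these values cannot tell more cells that make a transcript from more transcript per cell, and drug, GFP gate and hairpin state cannot be told apart, since all 3 differ between the groups.

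**Figure D1:**
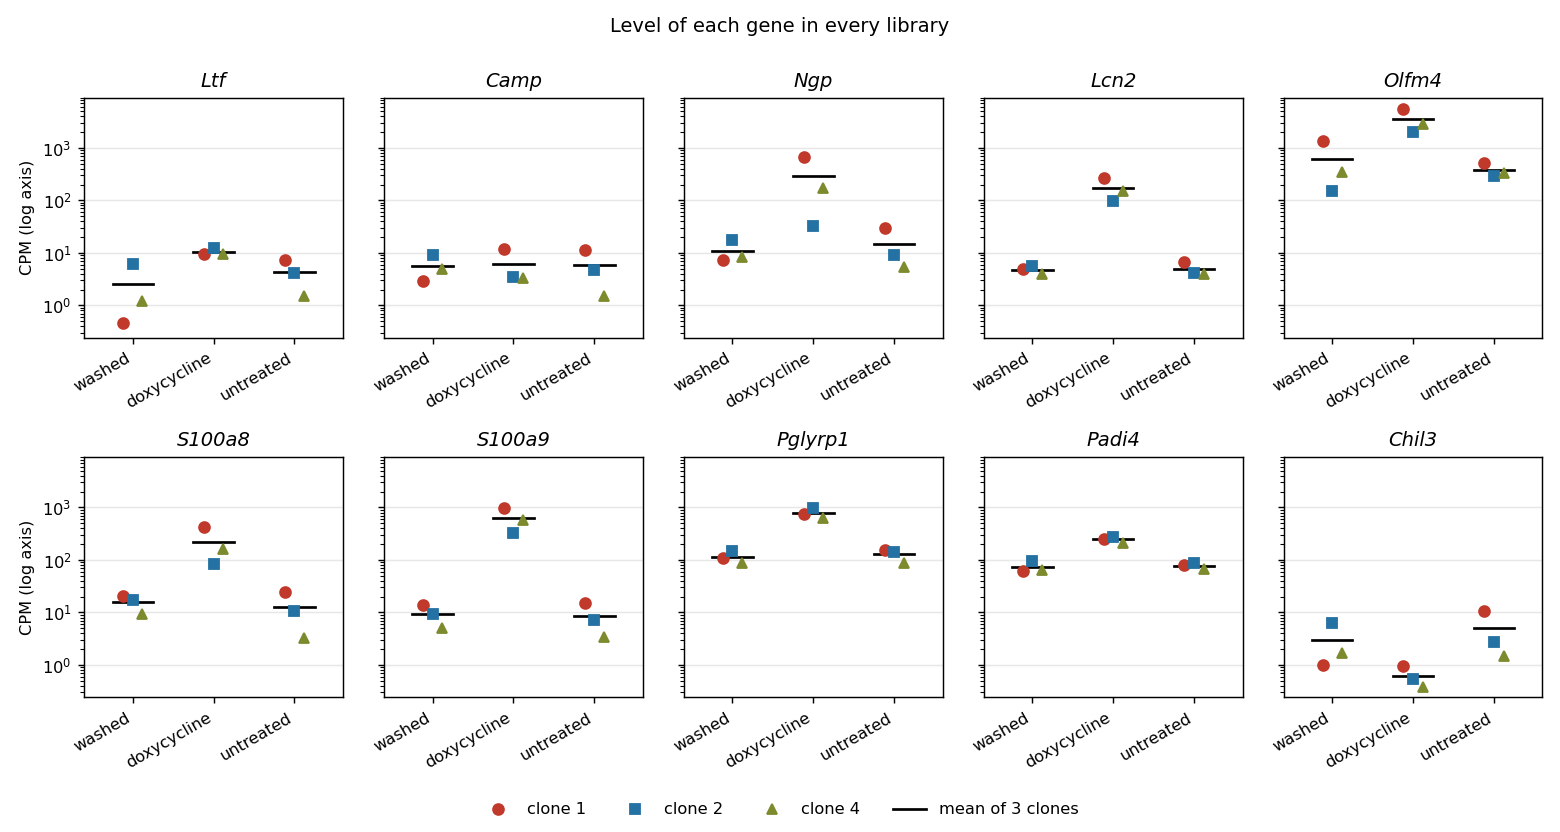
CPM of the 10 members (log axis) in washed, doxycycline and untreated libraries, 1 point per library, with clones 1, 2 and 4 marked by colour and shape and a bar at each group's mean. For Lcn2 and S100a9 the 3 doxycycline points sit far above the other 6, while for Camp the 3 groups overlap.

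The iron-related members were Lcn2 and Ltf. Lcn2 encodes lipocalin 2, which withholds iron from bacteria by binding their siderophores. It stood at 265, 99.0 and 153 CPM in doxycycline clones 1, 2 and 4, against 6.79, 4.16 and 3.95 CPM in untreated clones. Every doxycycline library was far above every untreated one. Its log2 fold change was 5.13 ± 0.41 (SE, adjusted p = 0.000865), the smallest p of any member. Ltf encodes lactotransferrin, the iron-binding protein that defines secondary granules. It stood at only 9.44, 12.3 and 9.50 CPM in doxycycline clones, against 7.34, 4.16 and 1.48 CPM in untreated clones. Those are 107, 93 and 98 reads against 40, 33 and 12, and the groups did not overlap. Its log2 fold change of 1.28 ± 0.81 did not pass (adjusted p = 0.347, 0.179 in the fit blocked by clone). Without untreated clone 1 it was 1.88 (adjusted p = 0.316). It passed in the blocked fits that left out that library (2.42, adjusted p = 0.0312) or washed clone 1 (1.47, adjusted p = 0.0378), both chosen after seeing the data. Both genes had GAGGAA and TTGCNNAA upstream.

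Camp and Ngp, with 570351 bases between them on chromosome 9 and both of the cathelicidin-related family, had different values. Ngp encodes neutrophilic granule protein. It stood at 677, 32.8 and 173 CPM in doxycycline clones 1, 2 and 4, against 29.2, 9.19 and 5.44 CPM in untreated clones. Doxycycline clone 2 came close to untreated clone 1, and clones 1 and 4 were far above all untreated libraries. The log2 fold change was 4.35 ± 1.06 (adjusted p = 0.0325). This call was lost without doxycycline clone 1 (2.83, adjusted p = 0.0854) and without untreated clone 1 (5.33, adjusted p = 0.0633), and in limma voom (3.89, adjusted p = 0.0739), and it was kept when clone entered the model as a block (4.15, adjusted p = 0.0142). Camp encodes the precursor of the antimicrobial peptide CRAMP. It stood at 11.9, 3.44 and 3.39 CPM in doxycycline clones, against 11.4, 4.79 and 1.48 CPM in untreated clones. The groups overlapped, clone 1 was the highest in both conditions, and clone 2 was lower with the drug. The log2 fold change was 0.12 ± 0.76 (adjusted p = 0.940), and it was -0.76 without doxycycline clone 1.

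Per kilobase of transcript, the Ngp to Camp ratio was 29.3, 4.92 and 26.2 in doxycycline clones 1, 2 and 4, against 1.32, 0.991 and 1.89 in untreated clones. The groups did not overlap, and the mean log2 ratio was 3.53 higher in doxycycline clones (exact permutation test, two-sided, p = 0.1, the smallest that 3 against 3 allows). The pair was thus near parity in untreated cells and unequal in doxycycline cells. In washed clones 1, 2 and 4 the ratio was 1.27, 0.997 and 0.877, again near parity, with a log2 difference of -3.91 from doxycycline clones (exact permutation p = 0.1, two-sided) and of -0.39 from untreated clones (exact permutation p = 0.3, two-sided). With 3 libraries a group, none of the 6 ratio tests made here and for calprotectin could reach a p below 0.1.

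Olfm4 encodes olfactomedin 4, a secreted glycoprotein that marks a subset of neutrophils. It had the highest mean RPKM, the CPM per kilobase of transcript, of the members in each group. In clone 2 alone Pglyrp1 was higher, at 1408 RPKM in doxycycline and 211 RPKM in untreated cells, where Olfm4 had 1196 and 175 RPKM. Olfm4 reached 5596, 1962 and 2892 CPM in doxycycline clones 1, 2 and 4, against 515, 287 and 330 CPM in untreated clones. The groups did not overlap, and clone 1 was highest in both. In doxycycline clone 1 it ranked 3 of all tested genes in RPKM. It changed by 3.21 ± 0.77 on the log2 scale (adjusted p = 0.0310, 0.00247 in the fit blocked by clone). It did not pass without doxycycline clone 1 (2.68, adjusted p = 0.0830) or without untreated clone 1 (3.50, adjusted p = 0.0900). A non-coding gene on the same strand, Gm6999, overlaps Olfm4 and shares 3.63% of its 50-base windows, so a small part of these reads could be assigned to either.

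S100a8 and S100a9 encode the 2 chains of calprotectin, which binds zinc and manganese and starves microbes of them. S100a9 stood at 993, 324 and 587 CPM in doxycycline clones 1, 2 and 4, against 15.0, 7.18 and 3.46 CPM in untreated clones. S100a8 stood at 422, 84.4 and 160.2 CPM in doxycycline clones, against 24.8, 10.6 and 3.21 CPM in untreated clones. Neither gene's groups overlapped, and in both conditions clone 1 was the highest. The log2 fold change of S100a9, 6.24 ± 0.69 (adjusted p = 0.0018), was the largest among the members. That of S100a8 was 4.14 ± 0.80 (adjusted p = 0.0139), and it did not pass without clone 2 (4.40, adjusted p = 0.0896).

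The 2 chains did not move in proportion. In RPKM, S100a9 was 1.89, 3.09 and 2.94 times S100a8 in doxycycline clones, against 0.488, 0.545 and 0.865 times in untreated clones. S100a9 was thus the more abundant transcript in every doxycycline library and the less abundant in every untreated one. The mean log2 ratio differed by 2.07 (exact permutation test, two-sided, p = 0.1, the smallest possible with 3 against 3). In washed clones the ratio was 0.528, 0.433 and 0.438, below 1 in each library. The washed ratios were lower than the doxycycline ratios by a mean of 2.47 on the log2 scale (log2 difference -2.47, exact permutation p = 0.1, two-sided). Against untreated clones the washed ratios overlapped (log2 difference -0.40, exact permutation p = 0.2, two-sided).

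**Figure D2:**
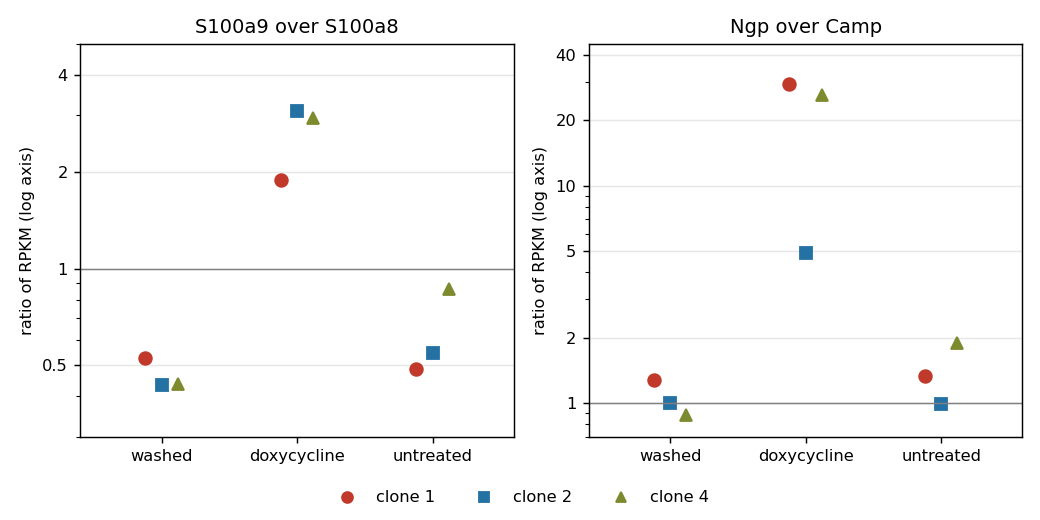
Ratio of RPKM (log axis) of S100a9 over S100a8 on the left and of Ngp over Camp on the right, 1 point per library in washed, doxycycline and untreated cells, with a line at a ratio of 1. Doxycycline libraries lie between 1.89 and 3.09 on the left and between 4.92 and 29.3 on the right, above every washed and untreated library.

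Pglyrp1 and Padi4 were already well transcribed in untreated cells and changed with little spread between clones. Pglyrp1 encodes a peptidoglycan recognition protein that is bactericidal. It stood at 749, 959 and 620.4 CPM in doxycycline clones 1, 2 and 4, against 158, 144 and 87.1 CPM in untreated clones. The groups were far apart, with a log2 fold change of 2.58 ± 0.31 (adjusted p = 0.00217). Padi4 encodes the enzyme that citrullinates histones when neutrophils release chromatin traps. It stood at 246, 277 and 212 CPM in doxycycline clones, against 78.9, 88.4 and 66.7 CPM in untreated clones. Its log2 fold change of 1.65 ± 0.22 (adjusted p = 0.00297) was the smallest of the 7 that passed. Within clones 1, 2 and 4 the doxycycline to untreated ratio of Padi4 was 3.12, 3.14 and 3.18 with TMM scaling, the narrowest range of the 10 members. By library size alone the ratios were less even. Padi4 was then at 108, 96.0 and 90.4 RPKM in doxycycline clones, against 22.0, 33.2 and 25.4 RPKM in untreated clones.

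Chil3 had few reads, and fewer in doxycycline cells. It encodes Ym1, a chitinase-like lectin of mouse neutrophil granules that alternatively activated macrophages also secrete. It stood at 0.971, 0.529 and 0.388 CPM in doxycycline clones 1, 2 and 4, against 10.6, 2.77 and 1.48 CPM in untreated clones. These are 11, 4 and 4 reads against 58, 22 and 12, and every doxycycline library was below every untreated one. Its log2 fold change of -2.91 ± 0.94 did not pass (adjusted p = 0.0807), and in the blocked fit it did (-2.76, adjusted p = 0.0498). With that block, 7 members were called higher and 1 lower, where 13% of all tested genes were higher and 11.7% lower. Without untreated clone 1, the library with 58 reads, Chil3 had a log2 fold change of -1.72 (adjusted p = 0.306), and with the block as well -1.38 (adjusted p = 0.230). That blocked fit called 8 members higher and 0 lower, among 2414 of 12309 genes. Of the 50-base windows of Chil3, 28.5% also occur in Chil4 or Gm6522, so its counts are uncertain, although Chil4 itself had at most 2 reads in any library.

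**Figure D3:**
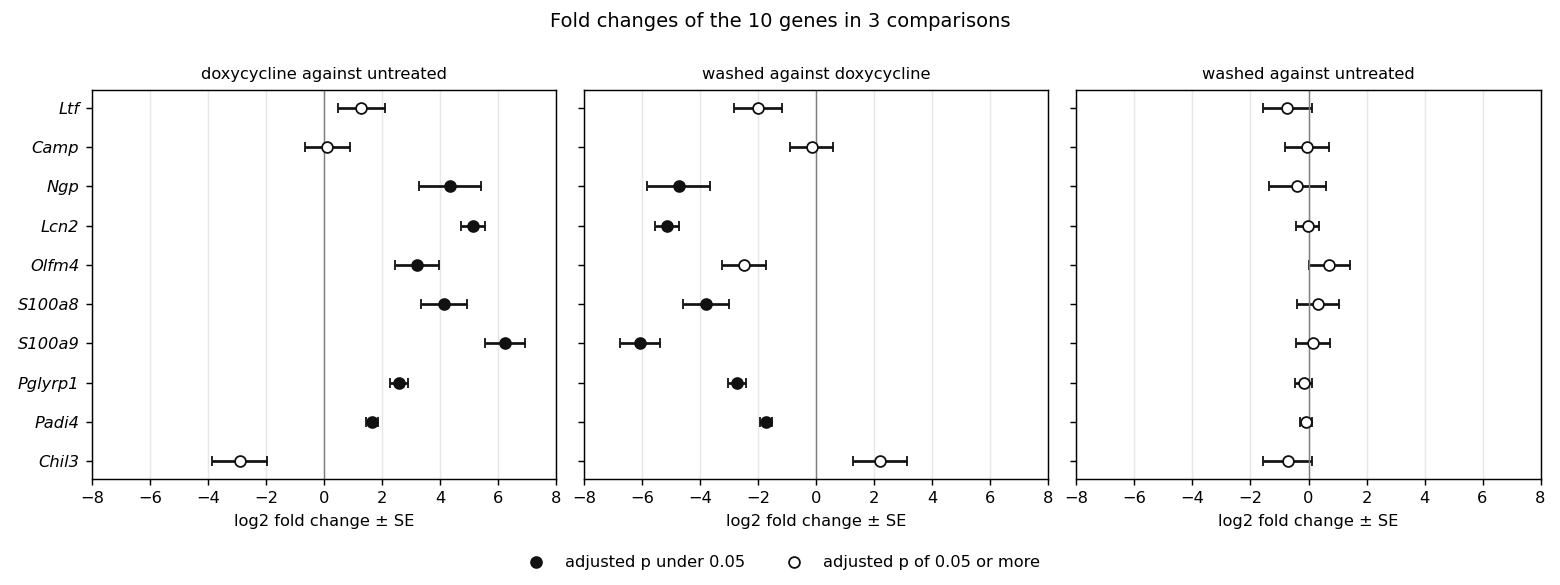
Log2 fold change of each member with its standard error, for doxycycline against untreated, washed against doxycycline and washed against untreated cells, from edgeR (3 libraries per group), with members at an adjusted p below 0.05 filled. Doxycycline against untreated values run from -2.91 for Chil3 to 6.24 for S100a9, and washed against untreated values from -0.73 for Ltf to 0.72 for Olfm4.

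The count of 7 depended on which clones were present. Leaving out clone 2 left 4 members called, with Ngp, Olfm4 and S100a8 lost, where 159 of 12076 genes (1.32%) were called. Leaving out clone 4 left 0 members and 0 of 12069 tested genes called by edgeR. Without clone 4, 8 members and 1608 genes still had an unadjusted p below 0.05, and the 7 log2 fold changes stayed between 1.63 and 5.88. Without untreated clone 1 the count was 5, where 347 of 12309 genes (2.82%) were called. Without doxycycline clone 1 it was also 5, where 718 of 12236 genes (5.87%) were. On all 9 libraries DESeq2 called 8 members and 17.8% of genes, and limma voom 6 members and 9.48%.

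Washing out the drug asked whether these transcripts fall again. Against doxycycline cells, 6 members fell in washed cells and 0 rose, where 6.02% of tested genes fell and 3.64% rose. The doxycycline libraries are the same ones used against untreated cells, so the 2 comparisons are not independent. S100a9 stood at 13.6, 9.31 and 5.14 CPM in washed clones 1, 2 and 4, and its log2 fold change against doxycycline cells was -6.07 ± 0.68 (adjusted p = 0.00192). Lcn2 stood at 4.88, 5.51 and 4.04 CPM in washed clones, a change of -5.16 ± 0.41 (adjusted p = 0.000914). S100a8 stood at 20.7, 17.3 and 9.42 CPM in washed clones, a change of -3.81 ± 0.79 (adjusted p = 0.0198). In all 3 genes every washed library was below every doxycycline library.

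Pglyrp1, at 111, 150.0 and 86.4 CPM in washed clones, fell by 2.75 on the log2 scale (SE 0.31, adjusted p = 0.00192). Padi4, at 61.8, 93.6 and 64.7 CPM in washed clones, fell by 1.74 (SE 0.22, adjusted p = 0.00255). Ngp, at 7.27, 17.5 and 8.32 CPM in washed clones, fell by 4.74 (SE 1.08, adjusted p = 0.0277), a call that was lost without doxycycline clone 1 (adjusted p = 0.0627) and in limma voom (adjusted p = 0.0662). For all 3 of these genes every washed library was below the lowest doxycycline library.

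Olfm4 differed from these in 1 library. It stood at 1365, 151 and 345 CPM in washed clones 1, 2 and 4, so that washed clone 1 was well above the other 2, and all 3 were below the doxycycline range. The log2 fold change of -2.49 ± 0.75 did not pass (adjusted p = 0.0700), but it did in the fit blocked by clone (-2.84, adjusted p = 0.0035) and without washed clone 1 (-3.81, adjusted p = 0.00474). With the block, 7 members fell and 0 rose, where 12.4% of tested genes fell and 10.4% rose. Washed clone 1 also stood apart in Mpo, the primary granule enzyme myeloperoxidase, which was looked up after its values were seen. Mpo was at 1720 CPM in washed clone 1 and at 65.1 and 50.04 CPM in washed clones 2 and 4. Washed clone 1 stood apart in other listed genes too, in both directions, also looked up after their values were seen. Ctsg was at 952, 119 and 110 CPM in washed clones 1, 2 and 4, and Csf1r at 0.552, 62.0 and 13.8 CPM. Whether any of these is related to Olfm4 was not tested.

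The other 3 members did not pass against doxycycline cells. Ltf stood at 0.460, 6.13 and 1.22 CPM in washed clones, with a log2 fold change of -2.01 ± 0.83 (adjusted p = 0.165, 0.0541 with the block). It passed with the block and without untreated clone 1 (-2.45, adjusted p = 0.0112). Camp stood at 2.95, 9.07 and 4.89 CPM in washed clones, of which clones 2 and 4 lay inside the doxycycline range, with a log2 fold change of -0.16 ± 0.76 (adjusted p = 0.923). Its sign turned with the block (0.12). Chil3 stood at 1.01, 6.25 and 1.71 CPM in washed clones, each above the doxycycline libraries, with a log2 fold change of 2.19 ± 0.93 (adjusted p = 0.175). It passed with the block and without washed clone 1 (3.40, adjusted p = 0.00298). Over all 10 members, washed libraries were wholly below doxycycline libraries for 8, where 14.5% of tested genes were, and wholly above for 1, where 11.8% were. The members' median log2 fold change was -2.62, against 0.04 over all tested genes. Leaving out clone 2 left 4 members called, with Ngp and S100a8 lost, where 70 of 12076 genes (0.58%) were called. Leaving out clone 4 left 0 members, where 4 of 12069 genes (0.0331%) were called. Without clone 4, 6 members and 1481 of the 12069 genes still had an unadjusted p below 0.05.

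Against untreated cells, no member differed in washed cells by edgeR, nor did any of the 12004 genes (0.0%), and 38 genes (0.317%) had an unadjusted p below 0.05. DESeq2, limma voom and the fit blocked by clone called 0 genes too. For all 10 members the washed and untreated ranges overlapped, where 1.31% of tested genes were wholly higher in washed cells and 1.05% wholly lower. The members' log2 fold changes ran from -0.73 for Ltf to 0.72 for Olfm4, with a median of -0.07 against 0.02 over all tested genes. Their standard errors ran from 0.21 for Padi4 to 0.97 for Ngp. They were also large for Ltf (0.84), Chil3 (0.84), Camp (0.77), S100a8 (0.74) and Olfm4 (0.71). With 3 libraries a group, even sizeable differences could go undetected for these members, and small ones for all. Lcn2 had a log2 fold change of -0.03 ± 0.39, Padi4 of -0.09 ± 0.21, Pglyrp1 of -0.16 ± 0.29 and S100a9 of 0.16 ± 0.59, each with an adjusted p of 1. Within clones the picture was mixed. Washed cells were higher than untreated cells for 1 of 10 members in clone 1, 9 in clone 2 and 7 in clone 4. In clone 1, washed cells were at least 2-fold lower for 4 members, with Ltf 15.9-fold lower (5 reads against 40). They were at least 2-fold higher for 1, Olfm4. The count of 1 higher member in clone 1 is against untreated clone 1, the library that stood apart, and depends on the TMM scaling. By library size alone, washed clone 1 was higher for Lcn2, Olfm4, S100a8, S100a9, Pglyrp1 and Padi4 and lower for Ltf, Camp, Ngp and Chil3. Such counts were not made over all tested genes.

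The level of these transcripts was also compared between clones. Among doxycycline libraries clone 1 was the highest for 7 members (Camp, Ngp, Lcn2, Olfm4, S100a8, S100a9 and Chil3), and clone 2 was the highest for Ltf, Pglyrp1 and Padi4. Among washed libraries clone 2 was the highest for 7 members and clone 1 for 3. Among untreated libraries clone 1, the library that stood apart, was the highest for 9 members and clone 2 for 1. By library size alone, Pglyrp1 was higher in untreated clone 2 (209 RPKM) than in untreated clone 1 (170 RPKM). The order of clones was not counted over all tested genes. Together the 10 genes took 0.187%, 0.0458% and 0.0522% of all counts in washed clones 1, 2 and 4, 1.04%, 0.343% and 0.540% in doxycycline clones, and 0.0630%, 0.0557% and 0.0507% in untreated clones. In a model with group and clone, 0 members and 0.0% of all genes differed between clones at an adjusted p below 0.05. At an unadjusted p below 0.05, 6 members differed, where 37.5% of all genes did, and the smallest p was that of Olfm4 (adjusted p = 0.0591).

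The size of the response was compared between clones too. The doxycycline to untreated ratio of S100a9 was 66.0, 45.2 and 170 in clones 1, 2 and 4, and that of S100a8 was 17.1, 7.98 and 49.9. The ratio of Ngp was 23.2, 3.57 and 31.7, and that of Lcn2 was 39.0, 23.8 and 38.7. For these 4 genes clone 2 gave the smallest ratio. The Spi1 ratio was 4.11, 4.10 and 6.57, nearly the same in clones 1 and 2 under TMM scaling. That likeness turns on untreated clone 1. By library size alone, Spi1 in clone 1 was at 171 RPKM in doxycycline and 26.5 RPKM in untreated cells. In clone 2 it was at 131 and 34.7 RPKM, a smaller ratio than in clone 1. A test of the difference in response, with washed and untreated cells pooled as 1 state, called 0 members and 0.0% of genes. At an unadjusted p below 0.05 it had 3 members, S100a9, Ngp and Lcn2, where 3.39% of genes passed. Both tests changed when 1 library was left out. Without untreated clone 1 the test of the response called 7 members (Ltf, Camp, Ngp, Lcn2, Olfm4, S100a8 and S100a9) and 4171 of 12309 genes, on 2 residual degrees of freedom. Without the same library the test between clones called 2 members, Olfm4 and Pglyrp1, and 3666 genes.

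**Figure D4:**
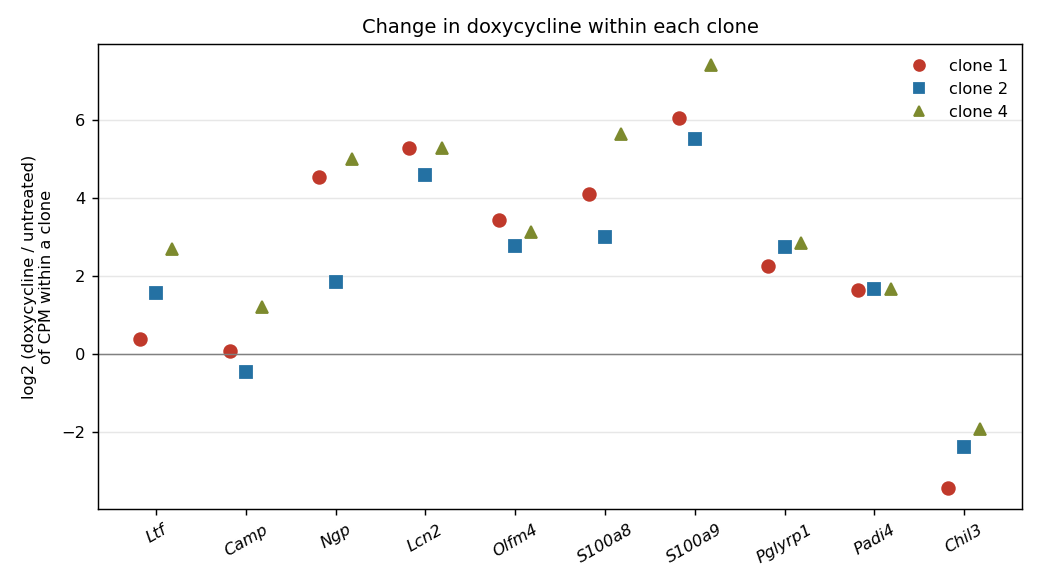
Log2 ratio of CPM in doxycycline over untreated cells within each clone for the 10 members, 1 point per clone. With TMM scaling Padi4 gave nearly the same ratio in the 3 clones. Ngp ranged from 3.57-fold in clone 2 to 31.7-fold in clone 4, and Chil3 was below 0 in every clone.

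Levels are comparable between genes only per length. In doxycycline cells the order by mean RPKM was Olfm4 (2124 ± 1151, SD, n = 3), S100a9 (1301 ± 691), Pglyrp1 (1140 ± 251), S100a8 (567 ± 452), Ngp (253 ± 292), Lcn2 (202 ± 99.1), Padi4 (92.9 ± 12.3), Camp (10.4 ± 8.19), Ltf (3.798 ± 0.597) and Chil3 (0.409 ± 0.198). Ranges of neighbours in this order overlapped from Olfm4 down to Lcn2 and separated from Lcn2 to Padi4 and at each step below. The members thus spanned from among the most abundant transcripts of the cells to a few reads. In untreated cells Olfm4 (230 ± 73.8 RPKM) and Pglyrp1 (190.2 ± 54.9 RPKM) overlapped each other and stood above the rest. Below them S100a8 (32.8 ± 27.9 RPKM), Padi4 (29.5 ± 4.12), S100a9 (17.5 ± 12.1), Ngp (12.6 ± 10.99), Camp (9.82 ± 8.41), Lcn2 (5.82 ± 1.85), Chil3 (3.23 ± 3.221) and Ltf (1.58 ± 1.07) each overlapped the next. In washed cells the order was the same, and Lcn2 there stood clear of Chil3.

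Other genes of the same granules were read against these members, from lists made with earlier results of these data known. For each list below, the shares over all tested genes were 6.57% higher and 4.35% lower in doxycycline against untreated cells. In washed against doxycycline cells they were 3.64% higher and 6.02% lower. Of 24 further secondary and tertiary granule genes 15 were tested, and 9 rose in doxycycline against untreated cells and 0 fell, with a median log2 fold change of 1.39. Against doxycycline cells, 8 fell in washed cells and 0 rose. Itgam, the CD11b integrin chain stored in these granules, averaged 745 ± 113 CPM in doxycycline cells and 59.6 ± 39.3 CPM in untreated cells (log2 fold change 3.65 ± 0.50, adjusted p = 0.0035). Lyz2, a lysozyme, averaged 450 ± 237 CPM in doxycycline cells and 66.4 ± 21.1 CPM in untreated cells (2.76 ± 0.38, adjusted p = 0.0039). Plaur, the urokinase receptor, averaged 98.7 ± 12.1 CPM in doxycycline cells and 39.4 ± 2.95 CPM in untreated cells (1.33 ± 0.21, adjusted p = 0.00673). The gelatinase and collagenase genes were not part of this. Mmp9 had at most 3 reads and Mmp8 at most 9 in any library, and neither was tested.

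The primary granule list gave another count. All 13 matched genes of that list were tested, 0 rose and 0 fell in doxycycline against untreated cells, and the median log2 fold change was 0.07. In the fit blocked by clone 2 rose and 3 fell, and 4 rose in washed against doxycycline cells. Elane, which encodes neutrophil elastase, averaged 9.95 ± 7.86 CPM in doxycycline cells and 41.8 ± 21.3 CPM in untreated cells (-2.05 ± 0.87, adjusted p = 0.168, 0.00516 with the block). Gusb, the lysosomal enzyme beta-glucuronidase, averaged 569 ± 310 CPM in doxycycline cells and 194 ± 48.9 CPM in untreated cells (1.55 ± 0.64, adjusted p = 0.152, 0.0164 with the block).

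**Figure D5:**
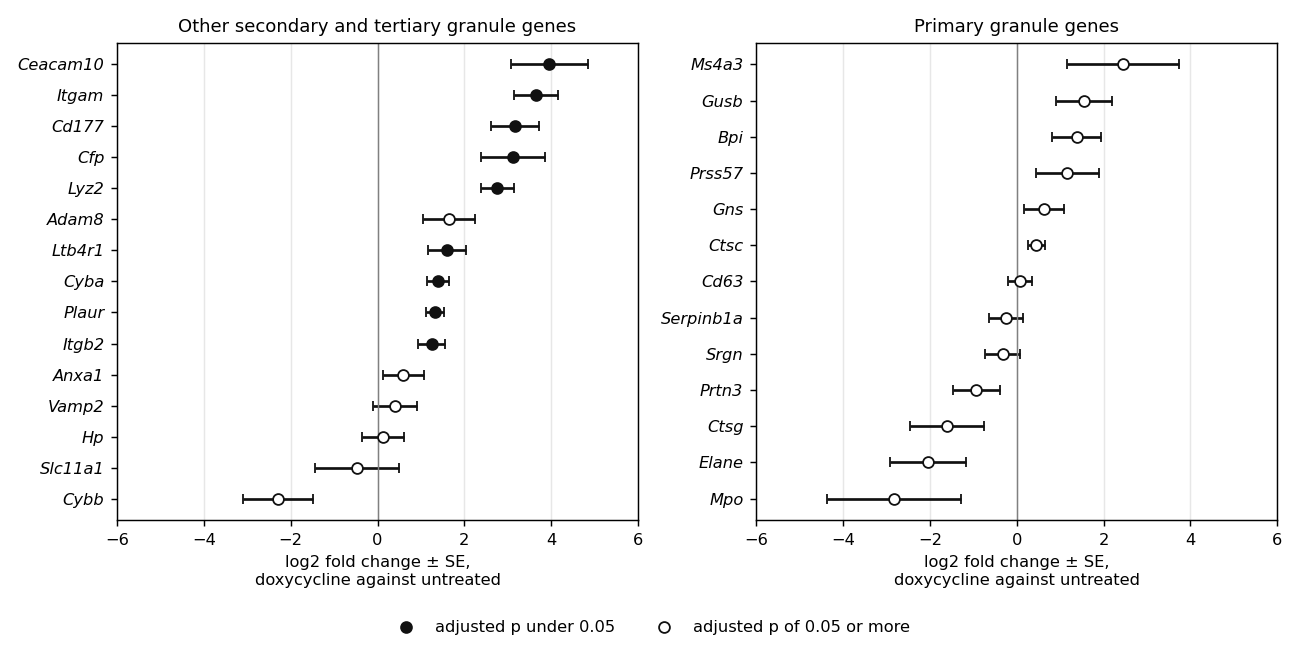
Log2 fold change in doxycycline against untreated cells with its standard error, for the tested secondary and tertiary granule genes other than the members on the left and the tested primary granule genes on the right, with genes at an adjusted p below 0.05 filled. Of the secondary and tertiary granule genes 9 of 15 were called higher, and of the 13 primary granule genes 0 were called.

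Of 20 genes of mature neutrophils outside the members 16 were tested, and 14 rose and 0 fell in doxycycline cells, with a median log2 fold change of 3.42. Clec4e, a receptor for microbial lipids, averaged 32.1 ± 3.37 CPM in doxycycline cells and 2.62 ± 0.354 CPM in untreated cells (3.61 ± 0.35, adjusted p = 0.00124). Against doxycycline cells 12 of the 16 fell in washed cells and 0 rose. Of 15 regulators of granule genes 13 were tested, and Stat3, Spi1 and Csf3r rose and 0 fell, where 6.57% of all tested genes rose. Spi1 is the target of the hairpin and served above to check the labels, so its rise is not a separate result. Csf3r is also among the mature neutrophil genes. Csf3r, the receptor for G-CSF, averaged 62.1 ± 33.2 CPM in doxycycline cells and 16.1 ± 1.81 CPM in untreated cells (1.95 ± 0.46, adjusted p = 0.0283). Cebpe, which encodes C/EBP-epsilon, was looked up after its values were seen and stood at 544, 399 and 422 CPM in doxycycline clones, against 327, 221 and 222 CPM in untreated clones (adjusted p = 0.127).

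Receptors of the member proteins and relatives of the members were counted in the same way. Of 11 receptors 6 were tested, and 1 rose, Trem1, which binds PGLYRP1 in humans and was also counted among the mature neutrophil genes. It averaged 28.0 ± 16.6 CPM in doxycycline cells and 0.622 ± 0.568 CPM in untreated cells (5.36 ± 1.25, adjusted p = 0.0272). Tlr4, a receptor of calprotectin, averaged 14.6 ± 1.37 CPM in doxycycline cells and 6.79 ± 2.64 CPM in untreated cells (1.11 ± 0.36, adjusted p = 0.0812, 0.0378 with the block). The 22 relatives came from the S100, peptidylarginine deiminase, lipocalin, chitinase-like, peptidoglycan recognition, olfactomedin and transferrin families. Of these 9 were tested, namely S100a1, S100a4, S100a6, S100a10, S100a11, S100a13, Padi2, Pglyrp2 and Trf. Only S100a11 rose, with 127 ± 21.9 CPM in doxycycline cells and 71.8 ± 5.82 CPM in untreated cells (0.82 ± 0.17, adjusted p = 0.0161). With the block 3 relatives rose and 1 fell. S100a6 averaged 293 ± 108 CPM in doxycycline cells and 139.6 ± 19.6 CPM in untreated cells (1.07 ± 0.41, adjusted p = 0.133, 0.035 with the block), and S100a10 averaged 64.5 ± 25.3 CPM in doxycycline cells and 176 ± 29.8 CPM in untreated cells (-1.45 ± 0.53, adjusted p = 0.117, 0.0144 with the block).

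Markers of neutrophils and of other blood cells were summed in each library, and their part in the members' results was not tested. Of 8 neutrophil markers 5 were tested and all 5 rose in doxycycline cells. These 5, Ly6g, Cxcr2, Csf3r, Retnlg and Itgam, were also in the lists above, so this count is not a separate one. The sum of the 8 was 42.4 to 65.2 CPM in washed, 714 to 972 CPM in doxycycline and 37.9 to 123 CPM in untreated libraries. Most of the doxycycline sum was Itgam, at 626 to 851 CPM, followed by Csf3r at 35.1 to 99.1 CPM. Defining markers among the 8 were at or near 0, since Fpr1 had at most 1 read, Mmp9 at most 3 and Mmp8 at most 9. Of 12 monocyte or macrophage markers 6 were tested, 0 rose and 1, Cx3cr1, fell, and the sum was 1818 to 2259 CPM in washed, 1206 to 5370 CPM in doxycycline and 1801 to 2333 CPM in untreated libraries, most of it Ly6c2. Ms4a7, C1qa and C1qc had 0 reads in every library. Of 6 eosinophil markers 5 were tested, Siglecf and Il5ra rose and Epx fell, and the sum was 8301 to 10937 CPM in washed, 3361 to 4927 CPM in doxycycline and 8342 to 12434 CPM in untreated libraries. The sum of 8 mast cell or basophil markers was 473 to 1745 CPM in washed, 156 to 1258 CPM in doxycycline and 1325 to 1687 CPM in untreated libraries, and of 5 tested 0 rose and 1, Cma1, fell. Of 3 tested megakaryocyte markers none passed, and of 3 tested erythroid markers Epor fell. Megakaryocyte markers summed to at most 9.13 CPM, erythroid markers to at most 25.6 CPM and B, T or NK cell markers to at most 0.490 CPM in any library.

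The likeness of other genes to the members was measured by Pearson's r of log2 CPM over the 9 libraries, which share clones and the 3 conditions, so r is a description only. Enpp5 (r = 0.979), an entry without a symbol (0.974), Xrcc4 (0.967), Pcyox1 (0.962), Rell1 (0.957) and Chst12 (0.952) were the most like the members' mean. The gene most like Lcn2 was Ncf1 (0.992), a subunit of the NADPH oxidase, and the one most like Padi4 was Mapk13 (0.997). The most like Pglyrp1 was F2rl2 (0.994), S100a9 was most like Ckap4 (0.991), Olfm4 was most like Pik3ap1 (0.991) and S100a8 was most like Unc5b (0.986). Ltf was most like Carhsp1 (0.981), Ngp was most like Ugcg (0.955), Chil3 was most like Gm6988 (0.954) and Camp was most like Tstd3 (0.870). Among the members themselves S100a9 and Lcn2 (0.991) and Pglyrp1 and Padi4 (0.990) ran closest together, and S100a8 and S100a9 had r = 0.967. Camp stood apart, at 0.504 with Ngp and 0.049 with Olfm4.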

How the data were processed

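RNA from GFP-sorted AML246 clones was prepared on the day of lysis, per the labels' protocols. The submitters' processing notes name the mm10 build, featureCounts, CASAVA 1.8.2, limma 3.22.0 and edgeR 3.8.2. No source used here gives the aligner, annotation or strand setting. Each deposited file holds unnormalized counts of reads for each Entrez identifier with a gene length, per the file headers. Symbols and coordinates came from RefSeq (GRCm38), which matched 25275 of 27179 entries.

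filterByExpr kept 12004 genes. edgeR 4.0.16 (R 4.3.3) fitted 1 mean per group to the 9 libraries with TMM scaling, and calls are at an adjusted p below 0.05. CPM are TMM-scaled, RPKM are CPM per deposited kilobase, and SE is the log2 fold change over the square root of F. The clone numbers pair libraries of the same cell line, whose deviations from group means correlated at 0.29 to 0.68 in 9 of 9 pairs, so a blocked fit with a term for clone was an alternative. Named genes are the 10 members, Spi1, from each list the 3 genes with the lowest p at most, and the genes most like the members (6 for their mean and 1 for each). Members and lists were chosen with earlier results of these data known. The fits were tested on simulated counts. Other alternatives were RLE, library size alone, other filters, DESeq2 1.42.0, limma voom 3.58.1, 2 groups alone and left-out libraries. Of 156 listed names, 154 matched. Some genes that the rule names are not reported here.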

Additional observations from a re-analysis of the deposited data

How the results depend on the processing

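With doxycycline against untreated cells, the 1311 genes called became 2138 in DESeq2, 2976 with the clone as a block (replicate block), and 2026 with the 2 groups alone. The 1160 called in washed against doxycycline cells became 648 under library size alone, 1967 in DESeq2, 2744 with the block and 324 with the 2 groups alone. Leaving out 1 clone or 1 library of clone 1 gave 0 to 2258 genes in the first and 4 to 1814 in the second comparison, with 0 to 8 and 0 to 7 members called. With the block, leaving out the untreated library of clone 1 gave 2414 and 3561 genes, and leaving out its washed library gave 4732 and 3820, fits chosen after seeing the data. Library size alone moved the median of all genes by 0.23 and raised the share of higher calls in doxycycline cells to 75.6%, against 60.2%. Its washed against untreated median was 0.22. The causes of these shifts were not tested.

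Members called in the clone comparison were 3 under library size alone (1140 of 12004 genes), 3 with no filter (1664 of 17582) and 2 without untreated clone 1 (3666 of 12309), and in the test of response they were 7 without that library (4171 of 12309 genes). Camp changed sign without clones or libraries, from -0.76 to 1.00 in doxycycline against untreated and from -0.97 to 1.03 in washed against doxycycline cells, where the block gave 0.12, and 0.97 without washed clone 1.

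Washed against untreated values, none of them called, changed sign most often. Library size alone gave 0.24 for Camp, 0.21 for Lcn2, 0.067 for Pglyrp1 and 0.10 for Padi4, limma voom 0.29 for Camp and 0.024 for Lcn2, and the block 0.33 for Camp and 0.12 for Ngp. Leaving out clones or libraries gave ranges of -2.38 to 0.38 for Ltf, -0.69 to 1.15 for Camp, -1.13 to 0.82 for Ngp, -0.24 to 0.25 for Lcn2, -0.60 to 1.01 for Olfm4, -0.21 to 0.82 for S100a9, -0.31 to 0.034 for Pglyrp1, -0.20 to 0.029 for Padi4 and -2.14 to 0.90 for Chil3. With the block and without untreated clone 1, values were 0.79 for Camp, 0.28 for Ngp, -0.18 for Olfm4, 0.026 for Pglyrp1 and 0.49 for Chil3. With the block and without washed clone 1 they were 1.16 for Camp, 1.04 for Ngp, 0.33 for Lcn2, -0.34 for Olfm4, 0.018 for Padi4 and 0.61 for Chil3.

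Apart from the cases named beside the members, the block changed no other member's call. Chil3 was not tested under the filter of 5 CPM in 3 libraries.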

Other observations

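Genes between and around the clustered members were examined as well. The stretch of chromosome 9 from Camp to Ltf (109847377 to 111042766, GRCm38) holds 14 tested genes besides the members. In doxycycline against untreated cells 4 of them, Als2cl, Ccdc12, Klhl18 and Nbeal2, were higher and 0 were lower, with a median log2 fold change of 0.40. Over all tested genes 6.57% were higher and 4.35% lower. The stretch of chromosome 3 from S100a1 to S100a10 (90511034 to 93564645) holds 7 tested genes besides S100a8 and S100a9. S100a11 was higher and 0 were lower, with a median of 0.38.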
